A study of Papio anubis with 60 samples.

Results

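H3K27me3 and H3K9me3, the marks of both main forms of silent chromatin, were compared in embryonic stem cells (ESC) of the olive baboon, Papio anubis, on autosomes 1 to 20. The members are all peaks of the ESC list of each mark on those chromosomes, taken by position alone. There were 51150 H3K27me3 peaks and 260371 H3K9me3 peaks, together 311521 of the 2116963 peaks in the 8 lists of the series. The series used chromatin immunoprecipitation with sequencing on ESC (lines B4 and B15) and on induced pluripotent stem cells (iPSC, lines 160-2 and M14939#3), all grown on feeder cells; the labels name no treatment. For each mark and cell type the labels give 3 replicates of each of 2 lines, with 50000 cells per library. There is 1 peak list per mark and cell type, and how the 6 libraries entered it is not given. No list has a replicate, and the depth behind the lists is unknown, so how far lines or cultures vary is not known for any value below. The lists were not joined to genes, so pluripotency markers could not be read from them.

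H3K27me3 is written by Polycomb repressive complex 2, whose catalytic subunit is EZH2 or EZH1, and in pluripotent cells it lies over CpG-rich promoters of developmental genes, often together with H3K4me3, the mark of active and poised promoters. H3K9me3 is written by SETDB1, SUV39H1 and SUV39H2, is bound by the HP1 proteins, and lies over satellite repeats, retroelements and clusters of zinc finger genes. The pathways are usually described as acting on different sequence, and the comparison asks how far that held in the ESC lists.

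Each mark occupied a different amount of the autosomes. H3K27me3 covered 53.9 Mb, or 2.08% of the sequence, and H3K9me3 covered 219.5 Mb, or 8.46%. H3K27me3 peaks had a median width of 446 bp, and 514 of them reached 10 kb, the widest at 120 kb. H3K9me3 peaks had a median of 526 bp, 283 reached 10 kb and the widest measured 73.8 kb. Peaks of H3K27me3 had a median enrichment of 3.01-fold and those of H3K9me3 of 2.54-fold, both the authors' own values.

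Most H3K27me3 sequence in ESC lay outside H3K9me3, and the part inside was little more than the coverage of H3K9me3 alone would place there. The marks had 5.35 Mb in common, which is 9.93% of the H3K27me3 base pairs and 2.44% of those of H3K9me3, or 2.00% of the sequence bearing either mark. As a level for comparison, the H3K9me3 list was moved around each chromosome to 20 evenly spaced positions, which keeps its widths and spacing. The share of H3K27me3 base pairs then averaged 8.56% and ranged from 8.13% to 8.94%, so the observed share was 1.16 times that level and above all 20 positions. This excess was not kept under every setting. The ratio was 0.899 among peaks of both marks with a −log10 q of at least 3, and 0.954 when peaks less than 3 kb apart were joined.

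Counted by peaks, 11118 H3K27me3 peaks (21.7%, 95% Wilson interval 21.4 to 22.1) overlapped an H3K9me3 peak by at least 1 bp, against 16.3% after shifting (15.9 to 16.9 over the 20 positions). In the other direction, 12234 H3K9me3 peaks (4.70%, interval 4.62 to 4.78) overlapped H3K27me3, against 3.51% after shifting (3.41 to 3.63). These intervals cover counting error only, and neighbouring peaks are not independent. The stretches in common were short. Among 12609 of them the median was 313 bp with quartiles of 176 and 506 bp, and 867 reached 1 kb. In 38.0% of the stretches the H3K9me3 peak lay wholly inside an H3K27me3 peak, in 25.1% the H3K27me3 peak lay wholly inside H3K9me3, and in 36.9% each peak stuck out at one side. Complete coverage by H3K9me3 was found for 6.18% of the H3K27me3 peaks.

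Contact between the marks was local. When H3K9me3 was moved by 0.1 kb, the share of H3K27me3 base pairs inside it was 9.57%, and by 0.5 kb it was 7.38%. It was lowest among the distances tried at 1 kb, at 6.74%, below all 20 long shifts. It then rose to 7.34% at 5 kb, 7.95% at 20 kb and 8.20% at 100 kb. The share therefore peaked at the true position, dipped around it and rose again over longer distances. Peaks under 1 kb showed the steeper form, from 13.8% in place to 5.97% at 0.7 kb, and wider peaks went from 8.29% to 6.72% at 1.5 kb. Within each of the 2 lists, neighbouring peaks were never less than 405 bp apart, and the part of that spacing in the dip was not tested.

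**Figure D1:**
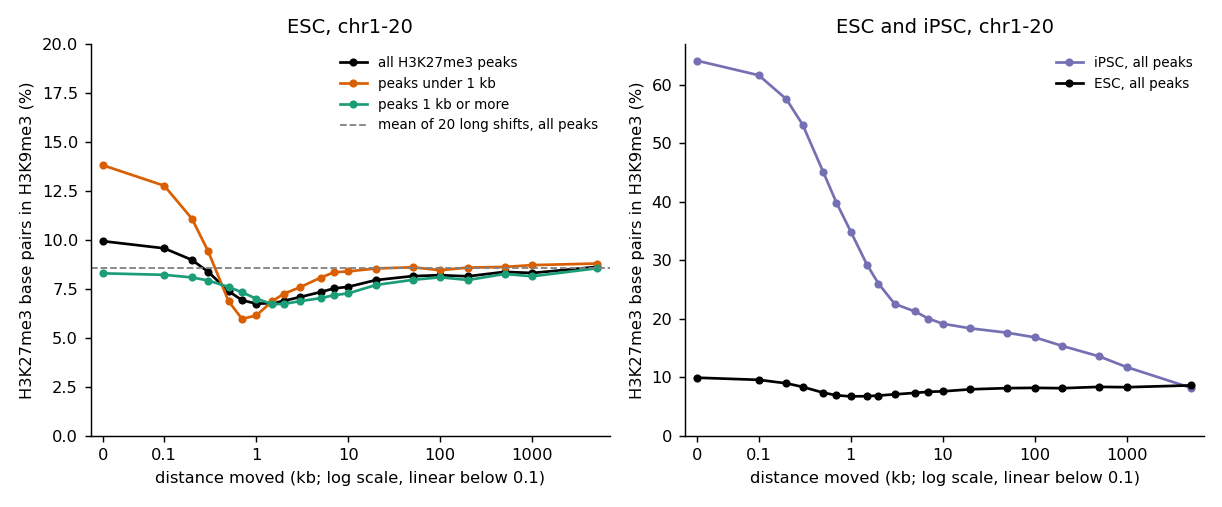
Percent of H3K27me3 base pairs inside H3K9me3 (vertical axis) after H3K9me3 was moved by the distance on the horizontal axis (log scale, mean of both directions). Left, ESC peaks in all, under 1 kb and of 1 kb or more, with the 8.56% mean of the long shifts as a dashed line; right, ESC (9.93% in place) beside iPSC (64.2% in place).

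Peaks of the 2 marks that did not overlap were not gathered side by side. Of 40032 H3K27me3 peaks off H3K9me3, 20627 (51.5%, interval 51.0 to 52.0) had an H3K9me3 peak at a gap under 5 kb, slightly less than the 53.7% in shifted lists (52.7 to 54.5). Over all 51150 H3K27me3 peaks, 62.1% overlapped H3K9me3 or lay within 5 kb of it, against 61.3% after shifting. The deficit was thus confined to the peaks that did not overlap, and lay in their shortest gaps. A gap under 500 bp was found for 4.03% against 9.12% after shifting, while gaps from 2 kb to under 5 kb made up 27.1% against 24.7%. H3K27me3 peaks with firm H3K4me3, meaning an H3K4me3 peak with a −log10 q of at least 5, stood furthest off among the H3K4me3 classes, with 45.2% within 5 kb (53.0% shifted) and a median gap of 5.79 kb (4.53 kb shifted). Peaks without any H3K4me3 were nearer than the shifted level, at 56.6% against 54.2%. Shifting does not keep the position of H3K9me3 relative to H3K4me3, so the shifted gaps are no matched level for these classes. From the H3K9me3 side, 9.54% of 248137 peaks off H3K27me3 had an H3K27me3 peak at a gap under 5 kb, against 10.8% after shifting. Over all H3K9me3 peaks, 13.8% overlapped H3K27me3 or lay within 5 kb of it, against 13.9% after shifting.

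In both lists the ratio of observed to shifted overlap was highest for the narrowest peaks, and it fell much further with width for H3K9me3 than for H3K27me3. Narrow H3K27me3 peaks touched H3K9me3 more often than shifted lists did. Under 500 bp, 5305 of 28723 peaks (18.5%) overlapped, 1.60 times the shifted 11.6%, and 14.9% of their base pairs were in H3K9me3 against 8.59%. From 500 bp to under 1 kb the ratio was 1.33, and from 1 to under 2 kb 1.07. The 514 peaks of 10 kb or more overlapped in 77.6% of cases, but shifted lists reached 72.7%, and by base pairs these wide Polycomb peaks were at the general level, 8.04% against 8.36%. Peaks of 5 to under 10 kb overlapped in 57.1% of cases, 1.19 times the shifted share, and had 8.60% of their base pairs in H3K9me3 against 8.63%. A wide peak thus often held a small patch of H3K9me3 and was seldom covered by it: 1.56% of the peaks of 10 kb or more had at least 50% of their length in H3K9me3, against 15.0% of those under 500 bp.

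Wide H3K9me3 peaks, in contrast, held less H3K27me3 than shifted lists placed there. The share of H3K9me3 peaks with H3K27me3 was nearly the same in every width class, 4.68% under 500 bp and 4.95% at 10 kb or more, while the shifted share rose from 2.66% to 22.5%. The ratio fell through the classes, from 1.76 under 500 bp to 1.04 from 1 to under 2 kb, 0.714 from 2 to under 5 kb, 0.458 from 5 to under 10 kb and 0.220 at 10 kb or more. Of the 283 widest H3K9me3 peaks, 14 touched H3K27me3, and 0.260% of their base pairs bore it against 2.50% after shifting. Chromosome 19 held 59 of these 283 peaks; without it 12 of 224 overlapped (5.36%, against 18.7% shifted). All 283 had a −log10 q of at least 3.

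**Figure D2:**
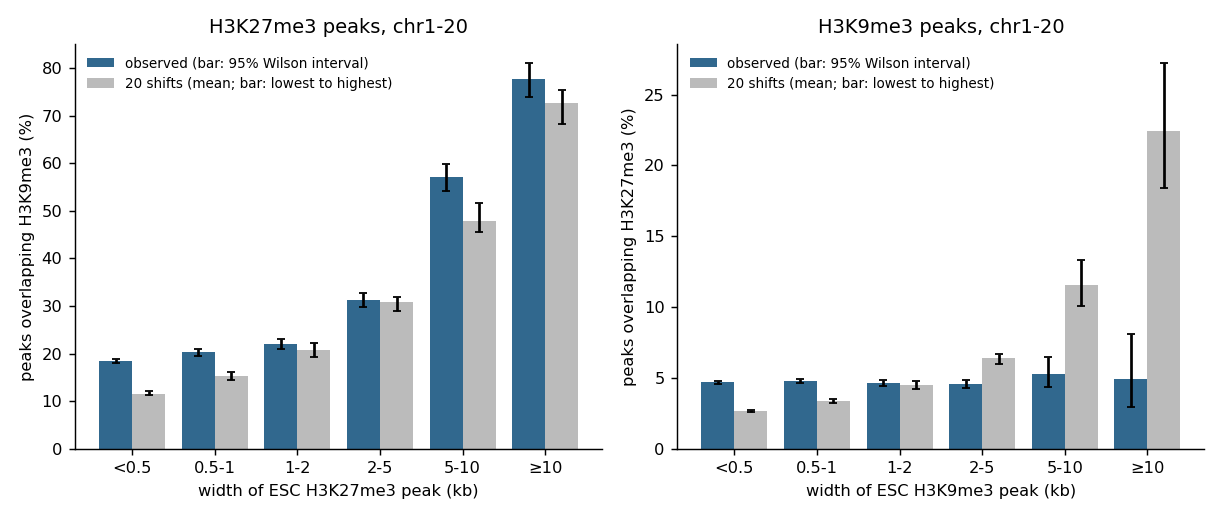
Percent of ESC peaks that overlap the other mark (vertical axis) by peak width in kb (horizontal axis), for H3K27me3 peaks on the left and H3K9me3 peaks on the right. Blue bars are observed shares with 95% Wilson intervals, and grey bars the mean of 20 shifts with their range. The observed H3K9me3 share stays between 4.56% and 5.29% while the shifted share climbs to 22.5%.

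The strength of a peak moved with its width. Among H3K27me3 peaks ranked by −log10 q into 5 groups of nearly equal number, the weakest had a median width of 347 bp and 12.9% of their base pairs in H3K9me3 (8.55% shifted). The strongest had a median of 1735 bp and 8.58% (8.55% shifted). For H3K9me3 the weakest group had 3.43% of its base pairs in H3K27me3 (2.06% shifted) and the strongest 2.25% (2.11% shifted). The excess in base pairs was thus largest in the weakest group of both lists. Width and strength were not separated. Among peaks under 1 kb, those that overlapped the other mark had about the same fold enrichment as those that did not, 2.86 and 2.90 for H3K27me3 and 2.38 and 2.42 for H3K9me3.

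H3K4me3 divided the H3K27me3 peaks into classes with different overlap. Firm H3K4me3 lay on 23029 of them (45.0%), only weaker H3K4me3 on 1584, and none on 26537 (51.9%). Of the peaks without H3K4me3, 20.3% overlapped H3K9me3 (interval 19.9 to 20.8), 1.58 times the shifted 12.9%. Those with firm H3K4me3 did so in 22.6% (22.1 to 23.1), 1.11 times the shifted 20.4%. They are wider, with a median of 747 bp against 353 bp. Overlap of separate lists by at least 1 bp does not show both marks on the same chromatin, so this class is not called bivalent. By base pairs the firm class was level with the shifted lists, 8.57% against 8.55%, and the class without H3K4me3 was above them, 13.8% against 8.62%. The small class with weak H3K4me3 alone had the largest share, 32.5% of peaks (30.3 to 34.9) against 14.3%. The order of the ratios was the same among peaks under 1 kb, 1.20 with firm, 2.51 with weak and 1.63 with no H3K4me3. Among peaks of 1 kb or more, firm and no H3K4me3 were close, at 1.053 and 1.099, with weak at 1.632. From 1 to under 2 kb the ratio was 1.151 with no H3K4me3 against 1.007 with firm. From 2 to under 5 kb the order of these classes turned, 0.869 for the 214 peaks with no H3K4me3 against 1.016. Both shares in that last class lay within the range of the shifts. H3K9me3 was itself denser on H3K4me3. It covered 10.9% of the sequence under any H3K4me3 peak, 9.41% under firm ones and 8.33% outside any. Shifting does not keep this link, so the shifted shares are no matched level for these classes. Of the H3K27me3 base pairs, 8.80% were in H3K9me3 under firm H3K4me3 and 10.4% outside any H3K4me3. No such level was computed for weak H3K4me3 alone, and the part of this link in its ratios was not tested.

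Among H3K9me3 peaks the classes were ordered differently, and firm H3K4me3 went with H3K27me3. Of 214674 H3K9me3 peaks without H3K4me3, 2.72% overlapped H3K27me3 (interval 2.65 to 2.79), below the shifted 3.35%. Of 34114 with firm H3K4me3, 16.5% did so (16.1 to 16.9), 3.87 times the shifted 4.26%. The 950 peaks of 5 kb or more without H3K4me3 overlapped in 2.21% of cases, against 13.7% shifted, and the 795 such peaks with firm H3K4me3 in 8.93%, against 12.4%. H3K27me3 itself is gathered on H3K4me3, where 41.7% of its autosomal base pairs lay against 5.58% after shifting. Shifting does not keep that link, so the shifted shares are no matched level for classes chosen by H3K4me3. The ratios that follow are set against H3K27me3 coverage of the same kind of sequence. Within the sequence under firm H3K4me3 peaks, H3K27me3 covered 18.2% of all base pairs and 17.0% of those in H3K9me3, a ratio of 0.935. Outside it, H3K27me3 covered 1.31% of all base pairs and 1.66% of those in H3K9me3, a ratio of 1.27. Of the 5.35 Mb in common, 64.6% lay outside firm H3K4me3.

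**Figure D3:**
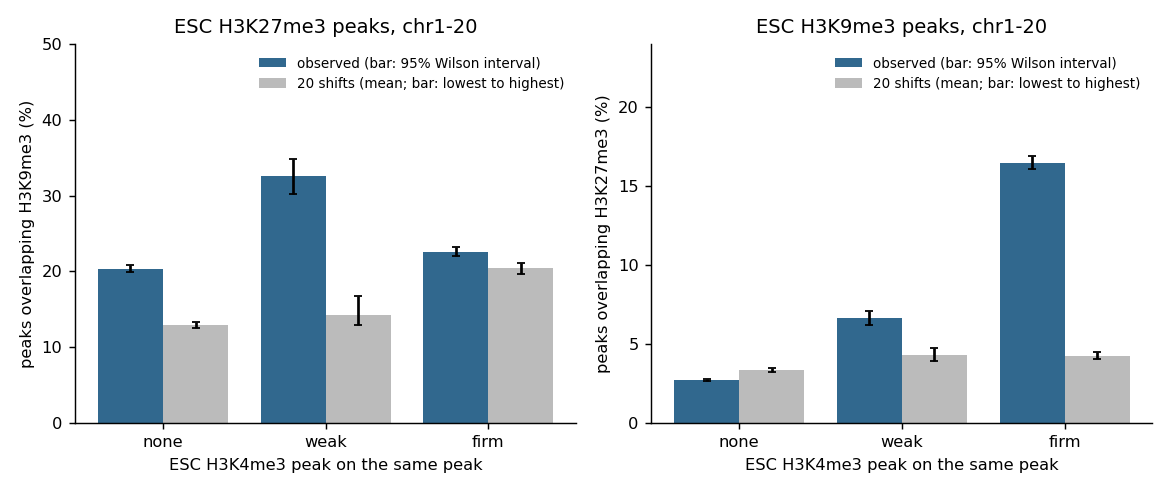
Percent of ESC H3K27me3 peaks overlapping H3K9me3 (left) and of H3K9me3 peaks overlapping H3K27me3 (right) for peaks with no, only weak or firm H3K4me3. Blue bars are observed shares with 95% Wilson intervals and grey bars the mean and range of 20 shifts. Firm H3K4me3 has the highest share on the right (16.5%) and weak H3K4me3 on the left (32.5%). Shifting does not keep the link of either mark to H3K4me3.

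In 25926 bins of 100 kb, coverage by one mark said almost nothing of coverage by the other. Spearman's rho was −0.030 and Pearson's r −0.025, and after shifting rho ranged from −0.033 to 0.010. Bins share libraries, depth and neighbours, so these are descriptions. For comparison, rho between H3K27me3 and firm H3K4me3 in the same bins was 0.643. H3K27me3 was absent from 12575 bins (48.5%) and H3K9me3 from 167. Bins without H3K27me3 had a mean H3K9me3 coverage of 8.63% ± 8.80 (SD over bins), and the 53 bins at least 50% covered by H3K27me3 had 7.61% ± 4.04. Within classes of bins by firm H3K4me3, rho lay between −0.017 and 0.067. Set against the H3K9me3 level of each H3K27me3 base pair's own bin, which would give 7.92%, the observed 9.93% was 1.25 times as high, so the excess was within bins.

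In the 194 bins at least 50% covered by H3K9me3, of which 25.3% were on chromosome 19, H3K27me3 was low. They had a mean H3K27me3 coverage of 0.936%, against 2.22% in bins under 5% H3K9me3, and 142 of them (73.2%) held no H3K27me3 at all. They were also poor in H3K4me3, with 1.58% firm H3K4me3 against 5.38%. Of the 89 such bins with no firm H3K4me3, 87 lacked H3K27me3, and so did 662 of 726 bins (91.2%) that had less H3K9me3 and no firm H3K4me3. The bins with firm H3K4me3 were split into 3 classes of nearly equal number by its coverage. In the lowest class 67.2% of the dense H3K9me3 bins lacked H3K27me3, against 80.8% of the other bins, in the middle class 30.8% against 46.6%, and in the highest 38.1% against 13.9%. These classes held 58, 26 and 21 dense bins. Mean H3K27me3 coverage of the dense bins against the others was 0.182% and 0.209% in the lowest class, 2.16% and 1.09% in the middle class, and 5.43% and 5.13% in the highest. Within the classes, dense H3K9me3 bins were thus not uniformly lower in H3K27me3. A low H3K4me3 level moved with the low H3K27me3 level, and its part was not tested.

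**Figure D4:**
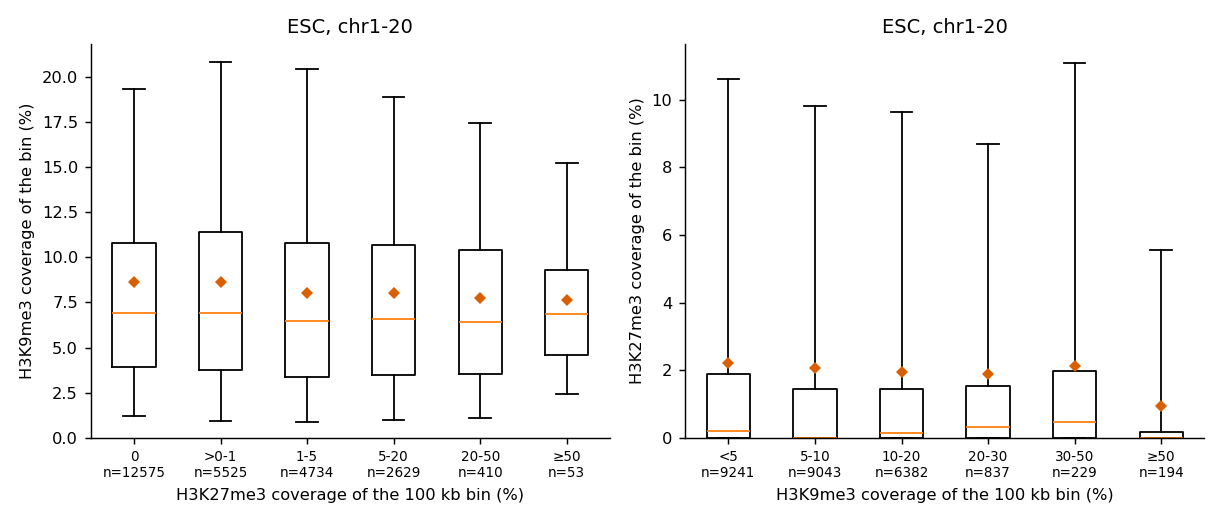
Coverage of 100 kb bins of the ESC autosomes by one mark (vertical axis, percent) in classes of coverage by the other (horizontal axis, with the number of bins). Boxes give quartiles and medians, whiskers the 5th and 95th percentiles and diamonds the means; H3K9me3 changes little with H3K27me3 on the left, and on the right the 194 densest H3K9me3 bins have the lowest mean H3K27me3, 0.936%.

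The relation went the same way on most autosomes, and chromosome 19 stood apart. The share of H3K27me3 base pairs in H3K9me3 was 10.04% ± 0.927 (SD over 20 chromosomes) and lay between 8.17% on chromosome 7 and 11.7% on chromosome 12. It exceeded the mean of the shifts on 18 of 20 chromosomes, from 1.02 times on chromosome 8 to 1.33 times on chromosome 12. Chromosome 7 was level with that mean (0.996 times). Shares on single chromosomes were set against this mean only, not against the range of the shifts. On chromosome 19, H3K9me3 covered 16.2% of the sequence and H3K27me3 4.61%, yet 11.1% of the H3K27me3 base pairs were in H3K9me3 against 16.3% after shifting, 0.680 times. Its bins gave a rho of −0.375, while the other 19 chromosomes lay between −0.075 and 0.106. Without chromosome 19 the ratio over the autosomes was 1.20.

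**Figure D5:**
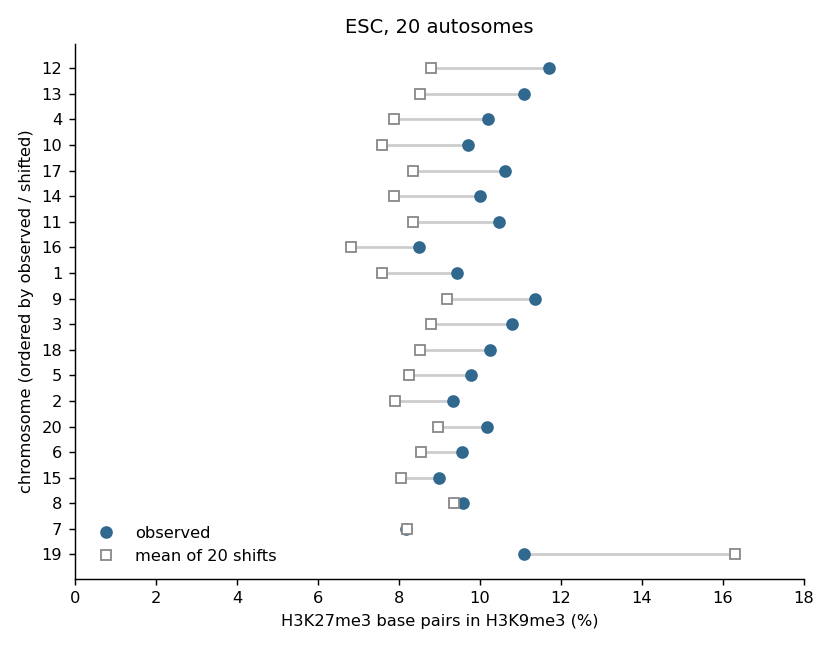
Percent of ESC H3K27me3 base pairs inside H3K9me3 (horizontal axis) for each of 20 autosomes (vertical axis, ordered by the ratio of observed to shifted). Filled circles are observed and open squares the mean of 20 shifts; chromosome 19 at the bottom has 11.1% observed and 16.3% shifted.

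Single regions show both the separate and the mixed state. They were picked by width or coverage and are descriptions; coordinates are those of the deposited lists, for which the sources used here name no build, and no gene is assigned. For these, peaks of a mark at most 3 kb apart were joined to domains. The widest H3K27me3 domain free of H3K9me3 spanned 51.5 kb at 74639376 to 74690828 of chromosome 15, with H3K27me3 over 75.3% and firm H3K4me3 over 25.4% of its length. The next lay at 57814788 to 57859328 of chromosome 12 (44.5 kb), 90.0% covered by H3K27me3 and 59.0% by firm H3K4me3, and at 93231896 to 93276226 of chromosome 9 (44.3 kb). All 3 were without H3K9me3 over at least 44 kb and rich in H3K4me3. Of 1586 H3K27me3 domains of 10 kb or more, 389 held no H3K9me3 and 8 had at least 50% of their length in it. The share of these domains that touched H3K9me3 was 75.5%, against 72.6% after shifting. Domains free of H3K9me3 were thus slightly fewer than in the mean of the shifts, whose range was not computed for domains. For the 8 no shifted level was computed.

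Of these 8 domains, the widest lay near the start of chromosome 12, at 275224 to 330569 (55.3 kb). H3K27me3 covered 90.4% of it, H3K9me3 68.4% and firm H3K4me3 31.5%, with no H3K27ac. The bin at 300001 to 400000 of that chromosome was the one highest in both marks, with 36.7% H3K27me3 and 62.0% H3K9me3. Next came bins at 2000001 to 2100000 of chromosome 3 (29.9% and 30.5%) and at 175100001 to 175200000 of chromosome 6 (41.8% and 27.5%), and 14 bins in all had at least 20% of each. The next domains of this kind measured 29.6 kb, at 4218160 to 4247792 of chromosome 1, and 18.1 kb, at 73169482 to 73187598 of chromosome 9. The latter held the longest unbroken stretch under both marks, 8.47 kb at 73178913 to 73187384. Stretches of 6.96 kb at 21632645 to 21639607 of chromosome 1 and of 6.52 kb at 35606468 to 35612982 of chromosome 14 followed. Firm H3K4me3 covered between 32.3% and 68.1% of these 3 stretches, and none held H3K27ac.

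The widest H3K9me3 domains without H3K27me3 were far larger. They spanned 527 kb at 22056349 to 22583746 and 365 kb at 48702672 to 49068145 of chromosome 19, and 302 kb at 42796169 to 43098270 of chromosome 8. H3K9me3 covered 84.3%, 70.8% and 88.1% of them, and firm H3K4me3 under 1% of each. Of all 1586 H3K27me3 domains of at least 10 kb, 102 overlapped an H3K9me3 domain of at least 10 kb or lay within 5 kb of one. Among the 389 that were free of H3K9me3, 6 had such a neighbour at a gap under 5 kb; no shifted level was computed for these counts. The widest of the 6 was at 86784836 to 86805976 of chromosome 5 (21.1 kb), 953 bp from a 14.2 kb H3K9me3 domain. The others named by the rule lay on chromosome 19 (15.2 kb, gap 1138 bp) and chromosome 1 (12.6 kb, gap 2136 bp).

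The relation was far closer in the iPSC lists than in those of ESC. In iPSC, 64.2% of the autosomal H3K27me3 base pairs lay in H3K9me3, against 7.25% after shifting, a ratio of 8.85, and 76.7% of the peaks overlapped. The excess in iPSC also reached further: moved by 100 kb, the share was still 16.8%. Each cell type has 1 list per mark and its own lines, so this difference was not tested, and cell type, line and library quality cannot be told apart. On the ESC X chromosome, where H3K9me3 covered 36.9% of the sequence, 33.5% of the H3K27me3 base pairs lay in it, within the range of the shifts there (32.0% to 42.5%). The ratio there was 0.893, whereas on the ESC autosomes it was 1.16 and the share was above all 20 shifts.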

How the data were processed

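The members and classes were chosen with earlier results of these data known. The submitters' processing notes name deepTools, Picard, SAMtools 1.10 and the peak caller MACS2. Aligner, build, calling thresholds and the pooling of libraries and inputs were not given in the sources used here. Each deposited list holds peak positions, a fold enrichment per peak (a ratio by the authors' peak caller) and the −log10 of its q-value. Of the 8 lists, 6 were used. The lists of H3K4me3 and H3K27ac in iPSC, and the −log10 p column, were not used.

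Positions were analysed with Python 3.11.15, numpy 2.4.6 and scipy 1.17.1, by functions tested on simulated data. Chromosome length was the furthest peak end in the 6 lists. Intervals on shares of peaks are 95% Wilson intervals. H3K9me3 was moved circularly to 20 fixed positions per chromosome as a level, not as a test, and no p-value was computed. For values on H3K9me3 peaks the H3K27me3 list was moved in the same way. For overlap with H3K4me3 or H3K27ac the list of that mark was moved. Firm H3K4me3 had a −log10 q of at least 5. Regions were named by rule: the 3 widest or most covered of each kind. The gene table describes another assembly (12 of 20 autosomes ended over 5 Mb off), so no gene or sequence was read.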

Additional observations from a re-analysis of the deposited data

How the results depend on the processing

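No paired analysis was possible because each cell type and mark has 1 list, with no columns for replicates, so no library could be left out either. The share of H3K27me3 base pairs in H3K9me3 (9.93%) was 7.81% and 5.51% with a −log10 q of at least 2 and 3, 10.2% and 13.2% with peaks joined within 1 and 3 kb, 9.41% without the outer 2 Mb of each chromosome, 9.87% without chromosomes 19 and 20, and 9.88% without chromosome 19 (added after the data were seen). Its ratio to the shifted level (1.16) was 1.17 against H3K9me3 coverage, 1.19 with shifts of at most 1 Mb, 1.03 with a −log10 q of at least 2, 1.14 without the outer 2 Mb and 1.20 without chromosome 19; joining within 3 kb turned it to 0.954. The share of H3K27me3 peaks that overlap (21.7%) was 12.3% when 50% of the peak had to be covered, 20.3% and 18.4% at the limits of 2 and 3, and 6.05% with the H3K9me3 list cut to its strongest 51151 peaks, about the length of the other list. For H3K9me3 peaks (4.70%) these values were 3.15%, 3.16%, 2.18% and 5.83%. All 8 of these shares of peaks were above their own shifted levels, by 1.14 to 1.65 times. The share within 5 kb (51.5%) was 41.6% at the limit of 2, against 45.9% shifted. Gaps under 1 and 10 kb gave 11.4% and 74.2%, against 16.6% and 74.9% shifted. H3K27me3 peaks with firm H3K4me3 overlapped in 22.6%, and in 23.2% with any H3K4me3 peak, 21.4% with H3K4me3 within 1 kb and 21.4% at the limit of 2. Peaks without it overlapped in 21.03%, and in 20.3%, 22.3% and 18.9% under the same settings. In the same order, the ratios to the shifted levels were 1.11, 1.16, 1.16 and 1.07 for peaks with H3K4me3. For peaks without it they were 1.62, 1.58, 1.74 and 1.65. Shifting does not keep the link of H3K9me3 to H3K4me3, so the shifted levels of these classes are not matched. Domains joined within 3 kb overlapped in 21.3%, 24.3%, 28.3%, 36.0% and 50.8% in the classes up to 10 kb, from the narrowest on. Their ratios to the shifted levels were 1.85, 1.61, 1.32, 1.11 and 1.05. Spearman's rho (−0.030) was −0.017 in bins of 50 kb, −0.088 in bins of 1 Mb, −0.053 at the limit of 2, −0.042 without the outer 2 Mb, −0.034 without bins that hold neither mark and −0.025 without chromosome 19. The causes of these shifts were not tested. Peak number depends on depth, which is unknown here.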

Other observations

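The sequence that bore both marks in ESC was set beside the iPSC lists. Of those base pairs, 70.0% bore H3K27me3 in iPSC, 53.0% bore H3K9me3 and 42.3% bore both. ESC sequence with H3K27me3 alone bore H3K27me3 in iPSC over 43.3% of its length, H3K9me3 over 2.74% and both over 1.95%. ESC sequence with H3K9me3 alone bore H3K9me3 in iPSC over 61.4%, H3K27me3 over 23.2% and both over 21.4%. Over all autosomal sequence, the iPSC lists had 3.47% H3K27me3, 6.96% H3K9me3 and 2.23% both. These are overlaps of single lists and were not tested. The 3 H3K9me3 domains of ESC that were widest without H3K27me3 bore iPSC H3K27me3 over 36.4%, 26.1% and 25.3% of their length, and the 3 H3K27me3 domains widest without H3K9me3 had iPSC H3K9me3 over 0.521% or less.

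H3K27ac, the mark of active promoters and enhancers, covered less of either silent mark than after shifting: 3.59% of the ESC H3K27me3 base pairs against 4.10%, and 2.94% of those of H3K9me3 against 3.96%. Sequence bearing both silent marks had 3.92% H3K27ac, and 3.95% of all autosomal sequence had it. Counted by peaks, H3K27me3 was above the shifted level, with 15.8% of its peaks touching H3K27ac against 14.4%, and H3K9me3 below it, with 11.5% against 13.5%.

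At the edges of H3K27me3 domains of at least 10 kb, H3K9me3 covered 8.11% of the sequence from 50 to 20 kb outside, 7.37% from 5 to 1 kb outside and 5.74% in the first 1 kb outside. Inside, it covered 8.25% of the first 1 kb and 6.64% from 1 to 5 kb. Firm H3K4me3 covered 8.76% of the sequence from 50 to 20 kb outside and 31.2% from 1 to 5 kb inside.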
